A study of Mus musculus with 10 samples.

Results

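Tuft cells are chemosensory epithelial cells, and a population with the same gene programme arises in the thymus medulla. The 10 genes described here are 4 regulators of that programme (Pou2f3, Gfi1b, Ascl2 and Sox9) and 6 effector genes (Dclk1, Il25, Il17rb, Chat, Avil and Rgs13). They were taken as a fixed list of gene names, and all 10 were found among 21883 protein-coding genes of the RefSeq table of build mm10. For each gene, the called ATAC-seq peaks were read within its annotated span extended by 25 kb on each side, here called its window. Peaks of all libraries were merged where they overlapped or touched, which gave 351411 regions, of which 173 lay in the 10 windows.

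ATAC-seq marks open chromatin by the insertion of sequencing adapters by a transposase. The libraries were made from sorted thymic epithelial cells (TEC), all from C57BL/6 mice of wild type genotype, and each of 5 groups had 2 libraries: the day 6 fractions mTEC4, mTEC1 and mTEC2, then embryonic day 17 (E17) and embryonic day 15 (E15). All groups share the strain, the genotype and the dissociation of the thymus with Liberase TH and DNase. What the fraction names stand for is not spelled out in the titles, peak names inside the lists use other ones, and the embryonic titles name no fraction, so that age and sorted fraction cannot be told apart. Whether the libraries came from separate animals or from pooled ones is not said in the labels, so the p-values measure the spread between these libraries, which may be technical. Because whole sorted populations were measured, a call at these genes cannot be assigned to tuft cells. Differing cell numbers and differing openness per cell cannot be told apart either.

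The lists held 40858 to 101917 peaks per day 6 library and 86237 to 151646 per embryonic library, with no read counts, so read depth is unknown. Where a list has no peak, chromatin may still be open below the caller's threshold. Of the peaks, 6.33% to 14.3% per day 6 library and 41.7% to 48.8% per embryonic library reached a −log10 q of 5. The main counts below are therefore also given at equal list length, with the 40858 strongest peaks of every list. All 8 TEC marker genes examined had a region in at least 1 library, as did all but 224 of the 21883 protein-coding genes. For Foxn1, the master regulator of TEC, the windows held 0 and 1 regions in the mTEC4 libraries, 3 and 7 in mTEC1, 9 and 4 in mTEC2, 12 and 15 in E17 and 12 in both E15 libraries. The 8 TEC genes together held 27 and 41 in mTEC4, 39 and 48 in mTEC1 and 64 and 34 in mTEC2. In the embryo they held 77 and 101 in E17 and 88 and 80 in E15.

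As background, Pou2f3 is a POU-domain transcription factor without which tuft cells do not form. Mature tuft cells sense luminal compounds through a taste-like signalling cascade and answer with the cytokine encoded by Il25 and with acetylcholine, for which Chat encodes the synthesising enzyme. Thymic tuft cells belong to the medullary lineage, and their frequency grows after birth.

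Over the 10 windows, the day 6 libraries had fewer called regions than the embryonic libraries at 9 genes, and Rgs13 had more. Windows of all 21883 genes were also lower at day 6, with a median difference of -2 regions. The share of all genes in each direction was not counted with all peaks. The 4 regulators together had 9 and 19 regions in the mTEC4 libraries, 7 and 17 in mTEC1, 20 and 8 in mTEC2, 26 and 41 in E17 and 30 and 27 in E15. That was 13.3 ± 5.96 at day 6 (SD, n = 6) and 31 ± 6.88 in the embryo (SD, n = 4), a ratio of 0.430. The 6 effectors together had 23 and 28 regions in the mTEC4 libraries, 16 and 32 in mTEC1, 39 and 14 in mTEC2, 37 and 54 in E17 and 45 and 47 in E15. That was 25.3 ± 9.59 at day 6 and 45.8 ± 6.99 in the embryo, a ratio of 0.554. The mean window of all protein-coding genes held 3.64 regions at day 6 and 6.28 in the embryo, a ratio of 0.579. At equal list length the ratios were 0.857 for regulators, 0.791 for effectors and 0.865 for all genes.

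**Figure D1:**
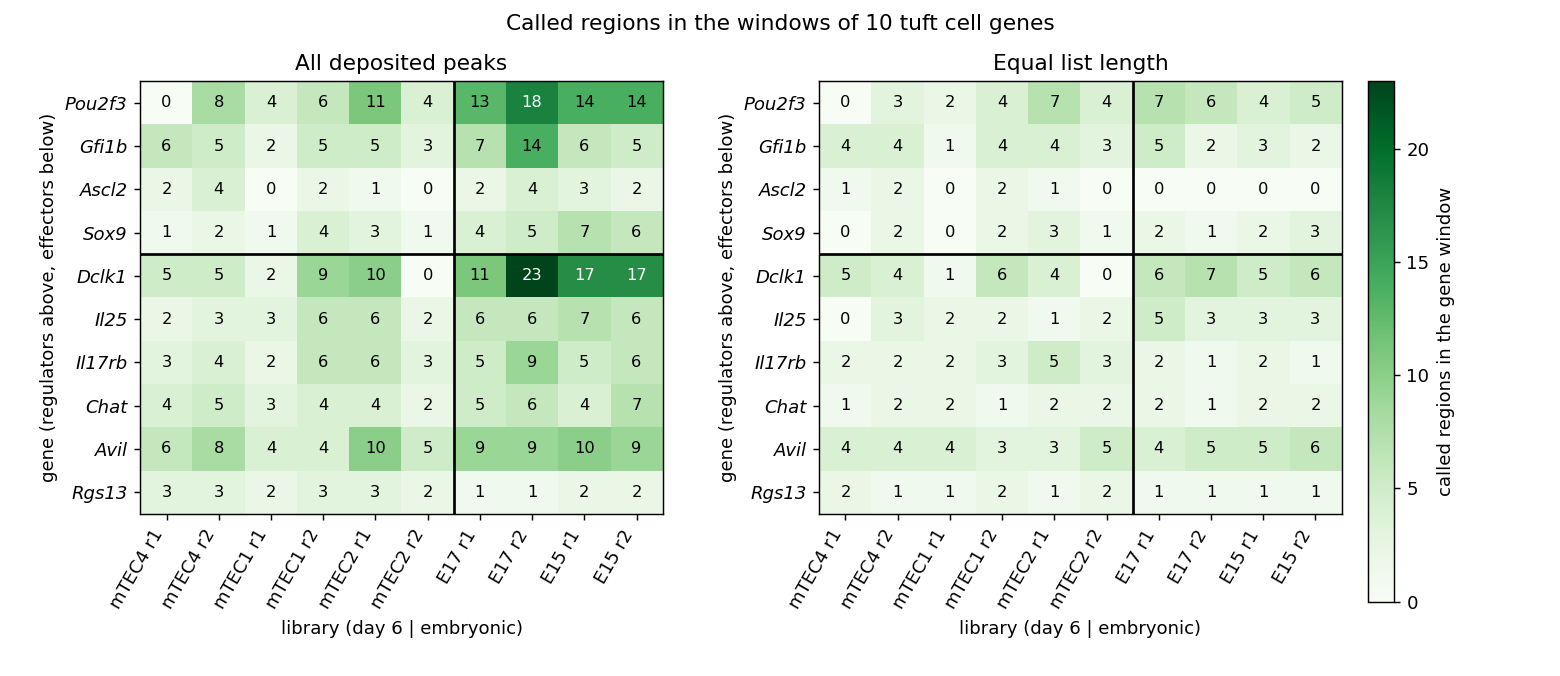
Number of called regions in each gene's window (rows, 4 regulators above the line and 6 effectors below) in each library (columns, day 6 left of the line and embryonic right), from all deposited peaks and from the 40858 strongest peaks of each list. With all peaks, Pou2f3 and Dclk1 show day 6 counts of at most 11 and 10 beside embryonic counts of at least 13 and 11, and at equal list length the ages share at least 1 value or overlap in every row, and Ascl2 has 0 in all 4 embryonic libraries.

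Each gene's difference was set against the spread between libraries with an exact two-sided permutation test of 6 day 6 against 4 embryonic libraries, whose smallest p is 0.00476, with Benjamini-Hochberg adjustment over all 21883 genes. In 2 of 10 members, Pou2f3 and Dclk1, every day 6 library lay below every embryonic one, which held for 19.5% of all genes. The same 2 passed an adjusted p of 0.05, as did 22.4% of all genes in that direction. The share among the 10 members was thus near that of all genes. The median difference was -2.83 regions over the members and -2 over all genes. At equal list length these medians were -0.38 and -0.17, and 0 of 10 members lay wholly below the embryonic libraries, against 3.57% of all genes. There the exact permutation test gave 0 genes of 21883 at an adjusted p of 0.05, while 3225 genes and 1 of 10 members, Il25, were under 0.05 before adjustment.

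**Figure D2:**
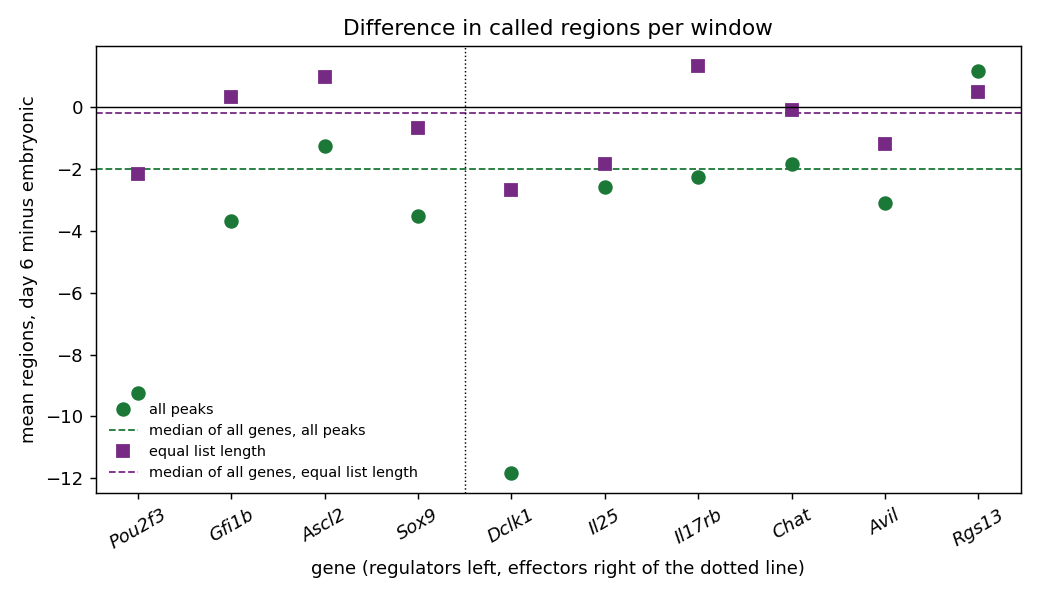
Difference in mean regions per window, day 6 minus embryonic, for each gene (regulators left of the dotted line, effectors right), from all peaks (circles) and at equal list length (squares), with the medians of all protein-coding genes as dashed lines at -2 and -0.17. Pou2f3 and Dclk1 lie lowest with all peaks, at -9.25 and -11.8. At equal list length Gfi1b, Ascl2, Il17rb and Rgs13 stand above 0, as did 8389 of all 21883 genes.

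Among the regulators, the window of Pou2f3 (chr9:43123927-43205755) held fewer regions at day 6. There were 0 and 8 in the mTEC4 libraries, 4 and 6 in mTEC1, 11 and 4 in mTEC2, 13 and 18 in E17 and 14 in both E15 libraries. All 6 day 6 libraries were below all 4 embryonic ones, and mTEC4 replicate 1 had no region anywhere in the 131.8 kb window. The mean was 5.5 ± 3.78 at day 6 (n = 6) and 14.8 ± 2.22 in the embryo (n = 4), a difference of -9.25 (exact permutation p = 0.00952, adjusted over all genes 0.042). At equal list length the counts were 0 and 3 in mTEC4, 2 and 4 in mTEC1, 7 and 4 in mTEC2, 7 and 6 in E17 and 4 and 5 in E15, which overlap (difference -2.17, exact permutation p = 0.157, adjusted 0.537). With 1 library left out, the adjusted p stayed under 0.05 without mTEC2 replicate 1 (0.0276) or E17 replicate 1 (0.0485) and lay between 0.0598 and 0.106 without any of the other 8.

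Gfi1b (chr2:28609450-28621982), a zinc finger repressor known from red cell and platelet development and also found in tuft cells, had 6 and 5 regions in the mTEC4 libraries, 2 and 5 in mTEC1, 5 and 3 in mTEC2, 7 and 14 in E17 and 6 and 5 in E15. The groups overlapped, and E17 replicate 2, the longest list, stood highest. The means were 4.33 ± 1.51 at day 6 and 8 ± 4.08 in the embryo (difference -3.67, exact permutation p = 0.0429, adjusted 0.0959). The difference was 0.33 at equal list length.

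Ascl2 (chr7:142966822-142969264), a basic helix-loop-helix factor known from intestinal stem cells, had 2 and 4 regions in the mTEC4 libraries, 0 and 2 in mTEC1, 1 and 0 in mTEC2, 2 and 4 in E17 and 3 and 2 in E15. The ages overlapped (difference -1.25, exact permutation p = 0.276, adjusted 0.38). No embryonic library kept a region at Ascl2 at equal list length, while mTEC4 had 1 and 2, mTEC1 0 and 2 and mTEC2 1 and 0. Sox9 (chr11:112782210-112787757), a high-mobility-group factor of epithelial progenitors, had 1 and 2 regions in mTEC4, 1 and 4 in mTEC1, 3 and 1 in mTEC2, 4 and 5 in E17 and 7 and 6 in E15. Day 6 averaged 2 ± 1.27 and the embryo 5.5 ± 1.29 (difference -3.5, exact permutation p = 0.0143, adjusted 0.0527), with 1 value of 4 shared by both ages. The difference was -0.67 at equal list length.

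Among the effectors, Dclk1 (chr3:55242303-55539068), which encodes a microtubule-associated kinase widely used as a tuft cell marker, had the largest window (346.8 kb) and the largest difference. It held 5 regions in both mTEC4 libraries, 2 and 9 in mTEC1, 10 and 0 in mTEC2, 11 and 23 in E17 and 17 in both E15 libraries. The ages did not overlap, although mTEC2 replicate 1 came within 1 region of E17 replicate 1. Day 6 averaged 5.17 ± 3.87 (n = 6) and the embryo 17 ± 4.9 (n = 4), a difference of -11.8 (exact permutation p = 0.00476, adjusted over all genes 0.0295). At equal list length the counts were 5 and 4 in mTEC4, 1 and 6 in mTEC1, 4 and 0 in mTEC2, 6 and 7 in E17 and 5 and 6 in E15 (difference -2.67, exact permutation p = 0.0905, adjusted 0.427). As for Pou2f3, the adjusted p stayed under 0.05 without mTEC2 replicate 1 (0.0276) or E17 replicate 1 (0.0485) and lay between 0.0541 and 0.0753 without any other single library.

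Il25 encodes the tuft cell cytokine that acts on innate lymphoid cells, and Il17rb encodes a subunit of its receptor. The Il25 window (gene span chr14:54932695-54935837) held 2 and 3 regions in mTEC4, 3 and 6 in mTEC1, 6 and 2 in mTEC2, 6 in both E17 libraries and 7 and 6 in E15 (difference -2.58, exact permutation p = 0.0524, adjusted 0.11). It was the member under 0.05 before adjustment at equal list length, where day 6 libraries had 0 to 3 regions and embryonic ones 3 to 5 (difference -1.83, exact permutation p = 0.0333, adjusted 0.293). Il17rb (chr14:29996168-30008896) had 3 and 4 regions in mTEC4, 2 and 6 in mTEC1, 6 and 3 in mTEC2, 5 and 9 in E17 and 5 and 6 in E15 (difference -2.25, exact permutation p = 0.11, adjusted 0.188). Its direction turned at equal list length, where the difference was 1.33.

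Chat (chr14:32408203-32465909) had 4 and 5 regions in mTEC4, 3 and 4 in mTEC1, 4 and 2 in mTEC2, 5 and 6 in E17 and 4 and 7 in E15 (difference -1.83, exact permutation p = 0.0714, adjusted 0.138). Avil (chr10:127000065-127020994), which encodes advillin, an actin-binding protein of the villin family, had 6 and 8 in mTEC4, 4 in both mTEC1 libraries, 10 and 5 in mTEC2, 9 in both E17 libraries and 10 and 9 in E15 (difference -3.08, exact permutation p = 0.0667, adjusted 0.132). In both genes the ages overlapped, and the differences were -0.08 for Chat and -1.17 for Avil at equal list length. Per length, Avil had the densest window in the embryo, with 8.69 called regions per 100 kb at day 6 and 13 in the embryo, and Dclk1 the sparsest at day 6, with 1.49 and 4.9.

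Rgs13 (chr1:144137386-144177372), which encodes a regulator of G protein signalling that shortens the signal of receptor-coupled G proteins, was the member whose day 6 mean was higher. Its window held 3 regions in both mTEC4 libraries, 2 and 3 in mTEC1, 3 and 2 in mTEC2, 1 in both E17 libraries and 2 in both E15 libraries. Day 6 averaged 2.67 ± 0.516 and the embryo 1.5 ± 0.577 (difference 1.17, exact permutation p = 0.0333, adjusted 0.0813), and the ages shared the value 2. The difference at equal list length was 0.5. Of its 12 regions, 10 were called in no embryonic library and 8 were called in 1 library only. Over all 10 windows, 61 of 173 regions were called in no embryonic library and 71 in 1 library only. Neither kind was counted over the genome. Restricted to strong peaks (−log10 q of 5 or more) the direction at Rgs13 turned, to -1.25 (adjusted exact permutation p = 0.00902), and every day 6 library lay below every embryonic one. With strong peaks alone, 54.9% of all genes lay wholly below the embryonic libraries and 71.4% passed as lower. The region of highest −log10 q in the window, chr1:144197787-144197934, lay 20415 bp above the high-coordinate end of the gene and was called in all 4 embryonic libraries with −log10 q up to 23.2 and in 3 day 6 libraries with at most 3.97.

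The single regions show where the embryonic calls lay. Of the 173 regions in the 10 windows, 5 were called in all 10 libraries. Another 10 were called in all 4 embryonic and no day 6 library, and 71 were called in 1 library only. Over the genome, 9700 of 351411 regions were called in all 10 libraries and 15077 in all 4 embryonic and no day 6 library. Those called in 1 library only were not counted over the genome. A region of the all-embryonic kind occurred in 6 of 10 members (2 each at Pou2f3 and Avil, 3 at Dclk1 and 1 each at Ascl2, Il25 and Il17rb) and in 43.6% of all windows. Regions called in at least 3 embryonic libraries and at most 1 day 6 library numbered 28, with none at Rgs13. Pou2f3 and Dclk1, the members with the longest windows (131.8 and 346.8 kb), had 8 each. Neither these regions nor the reverse kind were counted over all genes, so the numbers describe the 10 windows alone. The reverse, at least 4 day 6 libraries and at most 1 embryonic library, was met by 1 region, chr10:127005349-127005654 inside Avil, called in mTEC4 replicate 2, mTEC1 replicate 1 and both mTEC2 libraries with −log10 q of 1.09 to 2.8.

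At Pou2f3, the region chr9:43205470-43206160 across the high-coordinate gene end was called in all 4 embryonic libraries, with −log10 q of 6.93 and 6.05 in E17 and 2.56 and 4.41 in E15, and in no day 6 library. An internal region, chr9:43141953-43142101, was called in all 4 embryonic libraries (12.2 and 25.6 in E17, 5.52 and 9.65 in E15) and in mTEC4 replicate 2 (2.35), mTEC1 replicate 2 (1.41) and mTEC2 replicate 1 (3.07). These values are the authors' and rank peaks within their own list only. The window also holds ends of neighbouring genes: chr9:43105541-43106932, at an end of Arhgef12, was called in 9 of 10 libraries, mTEC4 replicate 1 being the one without it. With all regions at other genes' ends left out, the Pou2f3 difference was -8.25 (exact permutation p = 0.00476, adjusted 0.0343).

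At Dclk1, the internal region chr3:55373715-55373879 was called in all 4 embryonic libraries (−log10 q of 9.79 and 17.1 in E17, 12.1 and 7.72 in E15) and in no day 6 library. The region with the highest −log10 q of the gene, chr3:55520624-55520759, was called in the embryonic libraries at 20.7 to 41.1 and in mTEC4 replicate 2, mTEC1 replicate 2 and mTEC2 replicate 1 at 1.62 to 4.89. Each of these 3 day 6 values but that of mTEC4 replicate 2 was above its own list's median (1.86 in mTEC1 replicate 2 and 1.81 in mTEC2 replicate 1).

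**Figure D3:**
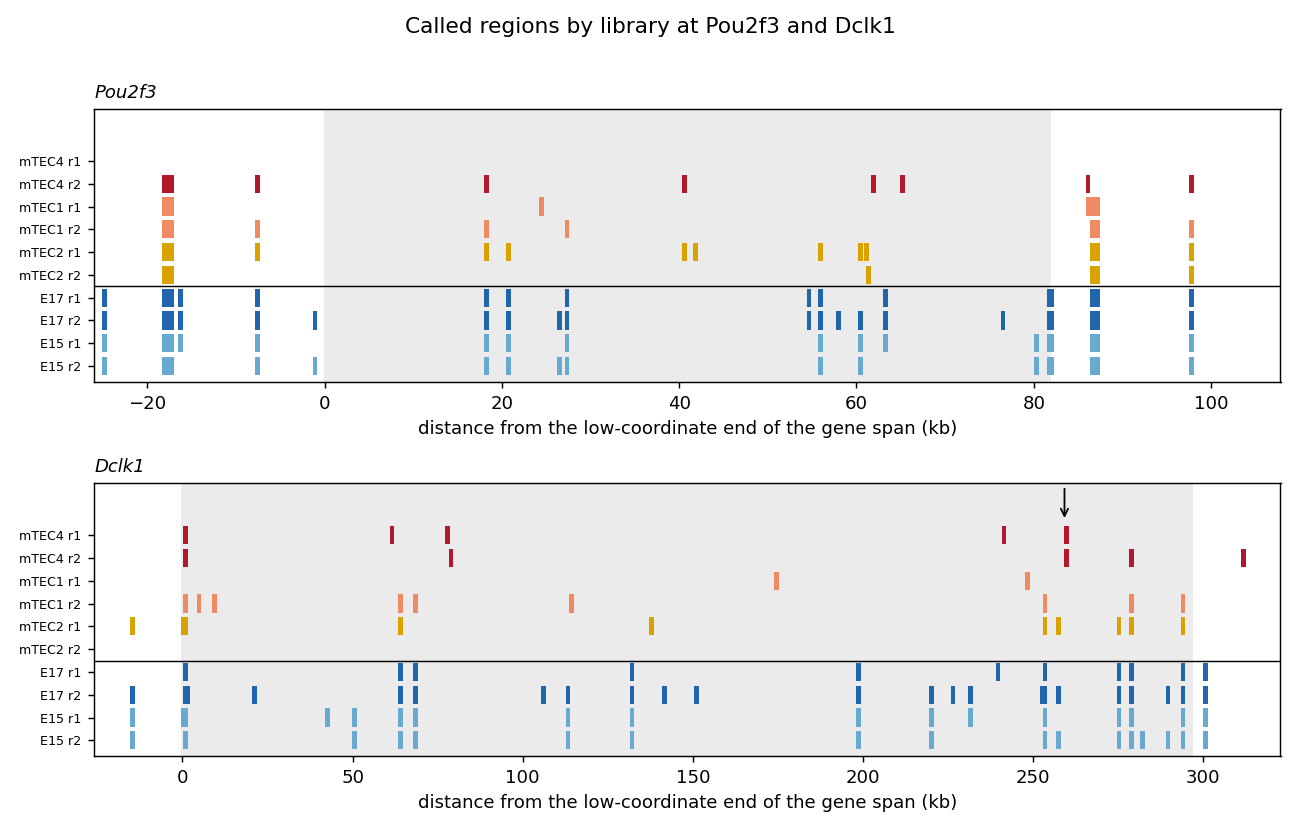
Called regions of each library (rows, day 6 above the line, embryonic below) by distance in kb from the low-coordinate end of Pou2f3 and Dclk1, whose spans are shaded. Bars are merged regions, with narrow ones widened to be visible, and the arrow marks the Dclk1 region called in both mTEC4 libraries alone. Embryonic rows of Pou2f3 hold 13 to 18 regions and day 6 rows 0 to 11.

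Start sites could be placed for 7 of the 10 members, from the RefSeq promoter table (GRCm38.p6, the same coordinates as mm10), with 8 start sites in all. Pou2f3, Sox9 and Il25 had none in that table, and their gene ends were used. Each start-site window ran from 250 bases before to 50 bases after the start. Of all 21262 such windows, 7534 were called in all 10 libraries, 7425 in none and the rest in some. Calls differed between libraries at 5 of the members' 8. The 250 bases upstream are printed here for 4 of those, the ones where the called region reaches upstream of the start, to show the sequence under the calls, read 5′ to 3′ on the gene's strand, with the bases inside the called region in capitals. They are Avil (plus strand, chr10:127000459-127000708), Ascl2 (minus strand, chr7:142969265-142969514), the internal start of Dclk1 (plus strand, chr3:55461478-55461727) and Gfi1b (minus strand, chr2:28621983-28622232).
Avil: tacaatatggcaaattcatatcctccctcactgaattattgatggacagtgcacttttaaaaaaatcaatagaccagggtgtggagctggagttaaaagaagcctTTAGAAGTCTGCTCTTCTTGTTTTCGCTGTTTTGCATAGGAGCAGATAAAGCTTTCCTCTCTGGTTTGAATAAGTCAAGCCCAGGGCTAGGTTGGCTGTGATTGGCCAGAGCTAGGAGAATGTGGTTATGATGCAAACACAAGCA
Ascl2: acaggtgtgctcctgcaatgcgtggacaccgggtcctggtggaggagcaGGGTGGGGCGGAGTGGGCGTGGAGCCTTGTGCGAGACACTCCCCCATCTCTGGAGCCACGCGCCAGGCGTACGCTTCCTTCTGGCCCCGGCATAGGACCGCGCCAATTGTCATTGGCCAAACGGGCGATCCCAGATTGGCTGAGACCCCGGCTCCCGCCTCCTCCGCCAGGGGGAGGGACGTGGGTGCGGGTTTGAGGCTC
Dclk1, internal start: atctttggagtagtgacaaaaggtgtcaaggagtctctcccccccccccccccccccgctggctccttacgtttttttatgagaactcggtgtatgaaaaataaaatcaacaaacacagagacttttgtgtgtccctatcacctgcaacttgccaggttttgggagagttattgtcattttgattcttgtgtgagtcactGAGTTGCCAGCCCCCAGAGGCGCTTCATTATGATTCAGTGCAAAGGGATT
Gfi1b: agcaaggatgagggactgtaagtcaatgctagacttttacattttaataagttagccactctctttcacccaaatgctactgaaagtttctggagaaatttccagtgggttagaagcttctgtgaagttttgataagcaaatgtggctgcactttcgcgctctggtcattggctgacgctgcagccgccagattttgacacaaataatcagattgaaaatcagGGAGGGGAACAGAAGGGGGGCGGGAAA

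The Avil start site was called in both mTEC4 libraries and in none of the other 8. Its region also lies within 1 kb of an end of the neighbouring gene Ctdsp2. The region, chr10:127000564-127000753, spans 145 of the printed bases and the start at 127000709, with −log10 q of 1.84 and 1.18 and fold enrichment of 3.71 and 3.11 over the caller's background. The median −log10 q of those lists was 1.68 and 1.76, and 57.4% and 3.75% of the peaks in those lists were weaker. Among 21262 start-site windows of all genes, 11 were called in both mTEC4 libraries and no other, which is 0.0517%, and the members held 1 of their 8.

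The Ascl2 start site showed the opposite distribution. The region chr7:142968810-142969465 covers 201 of the printed bases and was called in all 4 embryonic libraries (−log10 q of 1.53 and 3.86 in E17, 2.7 and 3 in E15) and in no day 6 library, as were 2.1% of all start-site windows. A neighbouring region inside the gene, chr7:142967438-142968437, was called in all 4 embryonic libraries and in mTEC4 replicate 2, mTEC1 replicate 2 and mTEC2 replicate 1. At Dclk1, the internal start lay in a region (chr3:55461678-55462173) called in E17 replicate 2 and both E15 libraries and in no day 6 library. The region just after the first start of Dclk1, chr3:55242403-55242846, was called in both mTEC4 libraries, mTEC1 replicate 2, mTEC2 replicate 1 and all 4 embryonic libraries. The Gfi1b start region, chr2:28621787-28622009, was called in mTEC4 replicate 2 (1.18) and E17 replicate 2 (5.24) alone.

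The Il17rb start site was called in all 10 libraries (chr14:30008675-30009204), as were 35.4% of all start-site windows, and that region also covers the start of the neighbouring gene Chdh, so its calls cannot be assigned to one of them. No library had a region at the start sites of Chat and Rgs13, as at 7425 of all 21262 start-site windows. For the 3 genes without a placed start, the low-coordinate end of Sox9 lay in a region called in 9 of 10 libraries, all but mTEC4 replicate 1 (chr11:112781757-112782830). A region 33 bp inside the low-coordinate end of Il25 (chr14:54932728-54933145) was called in all 4 embryonic libraries, with −log10 q of 12 and 6.8 in E17 and 5.22 and 3.65 in E15, and in no day 6 library.

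The 250 upstream bases were searched on both strands for short motifs of the regulators' factor families: ATGCAAAT, the octamer of POU factors, AAATCAC of GFI factors, CAGCTG, an E-box that reads the same on both strands, and AACAAT of SOX factors. Of all 21262 windows, 1.58%, 2.48%, 12.1% and 8.22% held them, in that order. None of the 4 was found in the printed sequences, and Chat held CAGCTG. The octamer without its last letter, ATGCAAA, a search added after the sequences were seen, occurred in 3.86% of all windows and in 2 places in Avil. The first match was on the gene's strand with its first base 15 bases before the start, and the other on the opposite strand at 115 bases, both among the capitals. These are matches of letters only.

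Regions called in both libraries of 1 day 6 fraction and in no other library were all from mTEC4. They occurred at 5 of 10 members (Ascl2, Dclk1, Il25, Chat and Avil, 1 each), that is 1 of 4 regulators and 4 of 6 effectors, and in 8.11% of all windows. The corresponding counts were 0 of 10 members for mTEC1 (5.1% of all windows) and 0 of 10 for mTEC2 (3.03%). Long windows hold more regions. Among windows of at most 110 kb, 4 of 8 members and 5.83% of genes had an mTEC4-only region, and with 10 kb on each side 5 of 10 members and 5.25% of genes did.

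Besides the Avil start site, these regions were chr14:32422839-32423105 inside Chat (−log10 q of 1.8 and 1.18), chr14:54931506-54931673 at 1022 bp below the low-coordinate end of Il25 (1.51 and 3.49), chr3:55501436-55501696 inside Dclk1 (3.07 and 2.2) and chr7:142973027-142973281 at 3763 bp upstream of Ascl2 (1.3 and 1.18). The higher of the 2 values had a median of 1.84 over the 5 regions and 1.85 over all 2787 mTEC4-only regions of the genome. The mTEC4-only count depended on peaks of that strength. At equal list length 2 of 10 members, Gfi1b and Dclk1, and 4.99% of genes had such a region, and among strong peaks there were 0 of 10 and 0.0731%. With regions at other genes' ends left out, which drops the one at Avil, 4 of 10 members and 7.93% of genes had one.

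**Figure D4:**
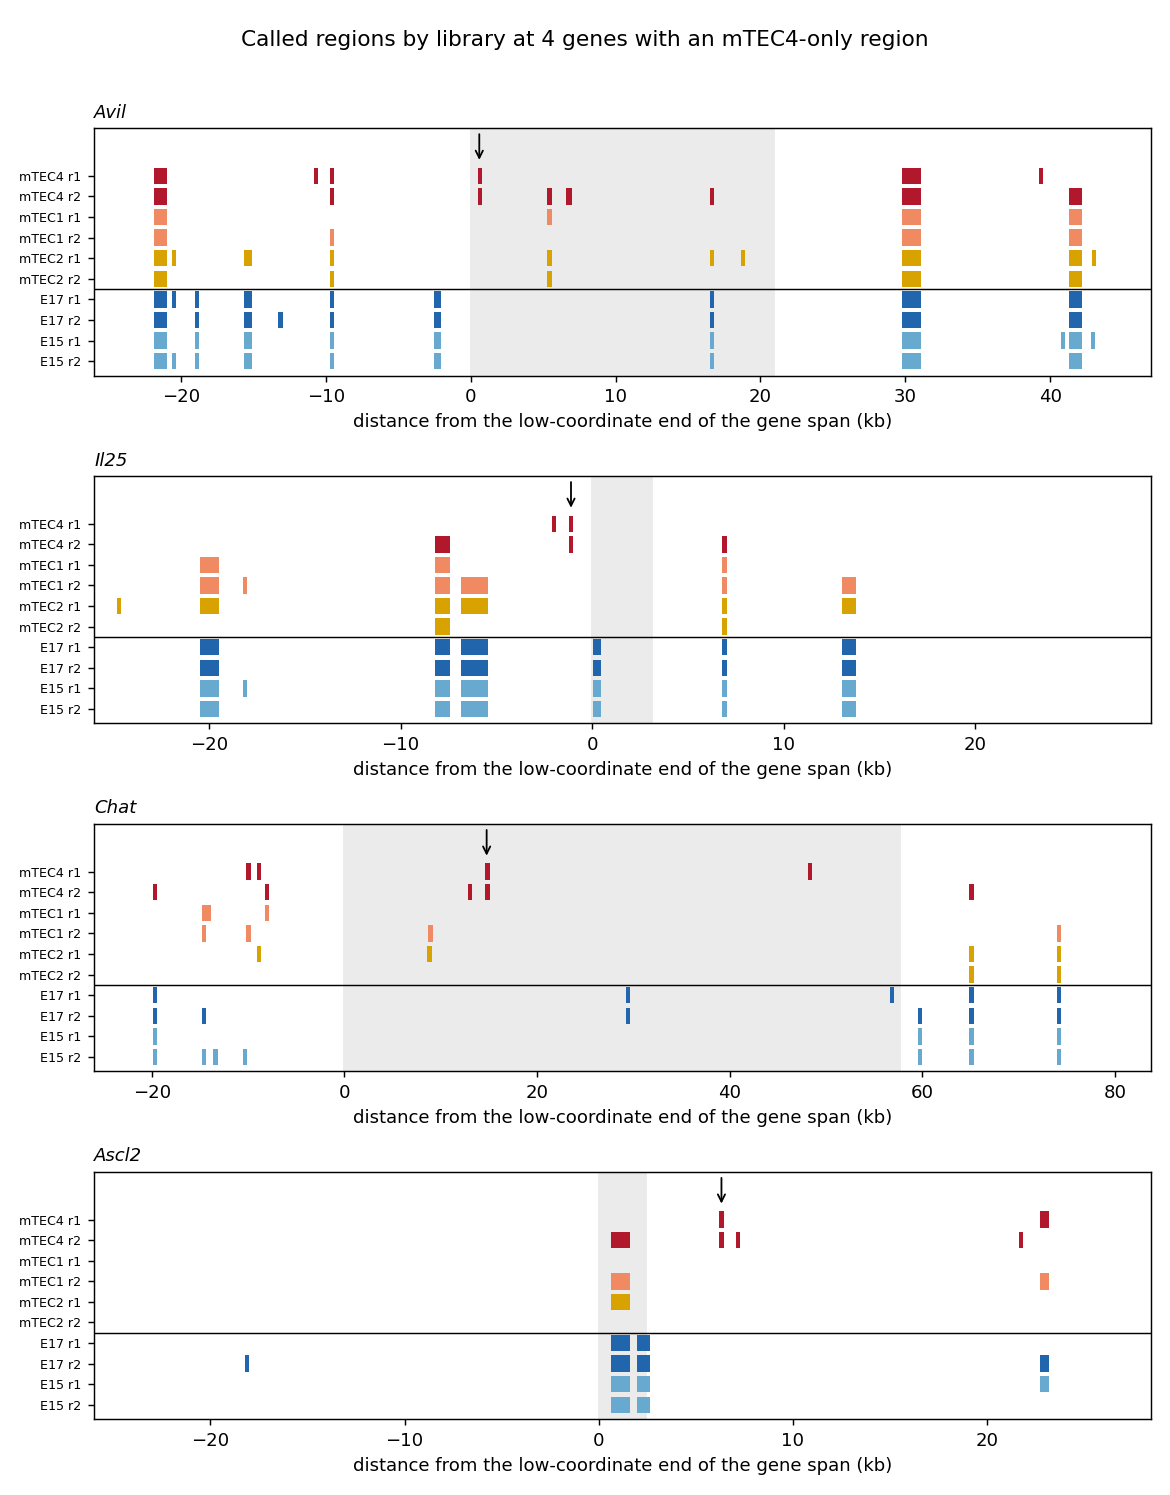
Called regions of each library (rows, day 6 above the line, embryonic below) by distance in kb from the low-coordinate end of Avil, Il25, Chat and Ascl2, whose spans are shaded. Bars are merged regions, with narrow ones widened to be visible, and each arrow marks the 1 region per gene called in both mTEC4 libraries and in no other library.

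In addition, 2 regions near Gfi1b were called in both mTEC4 libraries and 1 other: chr2:28608087-28608325, 1125 bp below the low-coordinate end (downstream), with E17 replicate 2, and chr2:28630071-28630387, 8089 bp upstream of the start, with mTEC1 replicate 1. These 2 were picked out after their values were seen. Their −log10 q in the mTEC4 libraries was 1.26 and 3.65 for the former and 1.54 and 1.94 for the latter. Gfi1b had no mTEC4-only region with all peaks. The share of all windows that meet this looser rule was not counted.

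The 3 day 6 fractions were each set against the other 4 day 6 libraries by regions per window. Over 60 such comparisons (10 genes, 3 fractions, with all peaks and at equal list length) the lowest exact permutation p was 0.133, in a design whose smallest is 0.0667 and which cannot reach 0.05. Replicates within a fraction differed widely: mTEC2 replicate 1 had 10 regions at Dclk1 and replicate 2 had 0. E17 against E15, at 2 libraries each, cannot go below an exact p of 0.333 and was not tested. Their counts overlapped at most members. Those of Gfi1b were 7 and 14 in E17 and 6 and 5 in E15, those of Sox9 4 and 5 in E17 and 7 and 6 in E15, and those of Rgs13 1 and 1 in E17 and 2 and 2 in E15. At equal list length the counts of these 3 genes overlapped or were equal. Those of Pou2f3 were then 7 and 6 in E17 and 4 and 5 in E15, without overlap. Full separation of 2 libraries from 2 gives an exact permutation p no lower than 0.333. The share of all genes so separated was not counted, so no difference between E17 and E15 is drawn from these genes.

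A wider list of 35 other tuft cell genes, all found, gave the surroundings of the 10. In 10 of 35, every day 6 library lay below every embryonic one (19.5% of all genes), and 2 of 35 did so at equal list length (3.57% of all genes). An adjusted p of 0.05 was passed by 10 of 35 as lower (22.4% of all genes) and by none as higher. The median difference was -2.33, against -2 over all genes, and at equal list length -0.75, against -0.17. The lowest differences were those of Itpr3, an intracellular calcium channel (-10.8, adjusted 0.0295), Runx1, a transcription factor (-10.4, adjusted 0.0813), and Bcl2l14, of the Bcl2 family (-9.92, adjusted 0.042, exact permutation tests over n = 6 and n = 4 libraries). The highest were those of Gnat3, the taste G protein subunit gustducin (0.92), Vav1, an exchange factor of blood cells (0.5), and Inpp5d, an inositol phosphatase (0.17), none of which passed.

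An mTEC4-only region was present at 10 of these 35 genes (28.6%), an mTEC1-only region at 1 (Alox5ap) and an mTEC2-only region at none. Among them were Plcb2, Gnat3, Alox5ap, Sh2d6, Matk, Sucnr1, Runx1, Pik3r5 and Krt18, whose window overlaps that of the TEC gene Krt8, and they were named after their values were seen. Of the 11 start-site windows with the mTEC4-only call, 3 belonged to tuft cell genes of the 2 lists: Avil, Plcb2, which encodes the phospholipase of the taste cascade, and Sh2d7, whose window was covered by separate peaks in the 2 libraries that do not overlap. The others were Ano7, Sdcbp2, Speer4b, Hepacam2, Itprid1, Prss36, Gm52448 and Sh3kbp1.

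**Figure D5:**
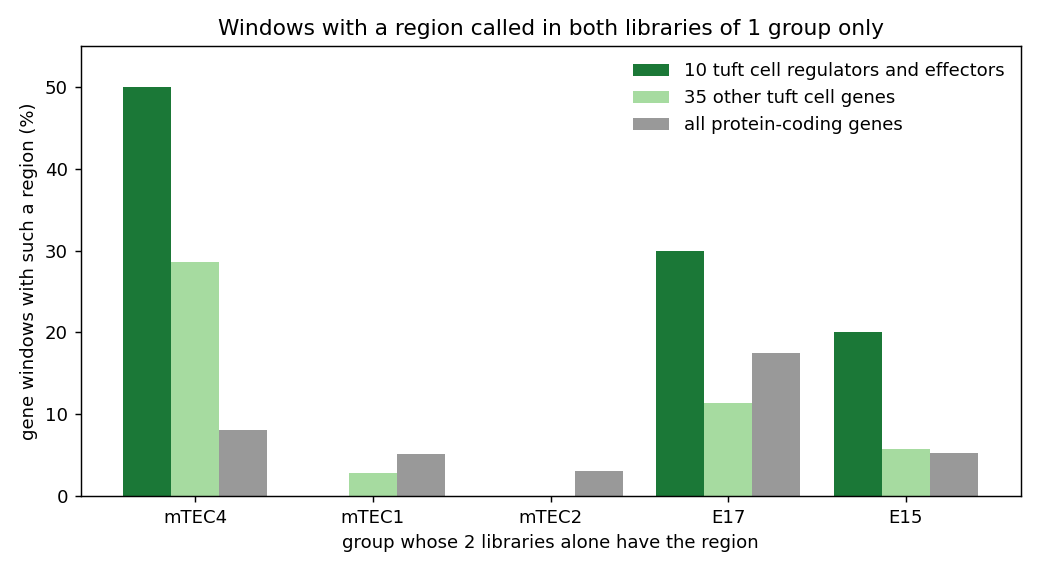
Percent of gene windows with at least 1 region called in both libraries of the group on the horizontal axis and in no other library, for the 10 members, 35 other tuft cell genes and all 21883 protein-coding genes. For mTEC4 the bars stand at 50, 28.6 and 8.11%, and for mTEC2 at 0, 0 and 3.03%.

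Markers of other cells were read in the same way. An mTEC4-only region was present at 1 of 8 TEC genes, 1 of 8 thymocyte genes, 1 of 8 macrophage and dendritic cell genes, 1 of 8 mesenchyme genes, 0 of 6 mast cell and basophil genes and 0 of 6 erythroid and megakaryocyte genes. An mTEC2-only region was present at 4 of 8 thymocyte genes and at none of the other marker genes, against 3.03% of all windows. No marker gene was without a region in all libraries, and only 224 of all 21883 protein-coding genes were. The summed regions at the 8 thymocyte genes were 23 and 40 in mTEC4, 37 and 49 in mTEC1, 71 and 40 in mTEC2, 48 and 70 in E17 and 55 and 54 in E15. At the 8 macrophage and dendritic cell genes they were 32 and 34 in mTEC4, 31 and 34 in mTEC1, 41 and 23 in mTEC2, 28 and 43 in E17 and 30 and 29 in E15, so that these did not show the lower day 6 sums of the members. At the 8 TEC genes they ran from 27 to 64 at day 6 and from 77 to 101 in the embryo, with 6 of 8 passing as lower (22.4% of all genes) and a median difference of -6.54. The sums ran from 12 to 34 at day 6 and 41 to 63 in the embryo for mesenchyme, from 8 to 18 and 12 to 30 for mast cells and basophils, and from 14 to 24 and 26 to 32 for erythroid and megakaryocyte genes. Their part in the members' results was not tested.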

How the data were processed

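The submitters' processing notes name cutadapt, Bowtie2, Picard, MACS2 and build mm10 without versions or order. A shift of read ends for the transposase is not stated in the sources read. Per the labels, the lists describe nucleosome-free chromatin, and each library had its own broad peak list, with no pooling of replicates. Each deposited peak has a score, which was not used because it repeats the −log10 q, multiplied by 10 and cut to a whole number. The deposited fold is a ratio of each peak to the background that the caller estimated in the same library, and −log10 p and −log10 q come from the authors' caller, with no −log10 q under 1.0002. Folds were used inside their own list alone, and libraries were compared by whether a peak was called. For equal list length, −log10 q ranked peaks within each list. The stricter peaks applied the same −log10 q cutoff of 5 to all lists, although their median −log10 q ran from 1.68 (mTEC4 replicate 1) to 4.87 (E17 replicate 1). For mTEC4-only regions, the higher −log10 q was taken over both mTEC4 lists.

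Touching peaks, or those sharing at least 1 bp, were joined across the 10 lists (882163 peaks), and a region was called in a library with any of its peaks. Windows were RefSeq spans of genes on the autosomes, X and Y with 25 kb on each side. Means were compared by exact two-sided permutation over 210 arrangements, with Benjamini-Hochberg adjustment over all genes, checked on simulated data. Python 3.11.15, numpy 2.4.6 and pandas 2.3.3 were used. The lists differ in length and in peak strength, and the part of this in the counts was examined at equal list length and with stricter peaks. Alternatives were equal list length, stricter peaks, other windows, other counting rules, a replicate block and leaving out libraries. Named were all members, their start-site regions and regions that leaned to one age or belonged to 1 day 6 fraction, and the 3 other tuft cell genes with the largest and the 3 with the smallest difference. No genome sequence was used, so regions outside the promoter table are given by position alone. One gene of the wider list is counted but not reported here by name. The members, lists and tests were chosen with earlier results of these data known.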

Additional observations from a re-analysis of the deposited data

Results flagged for a closer look

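In the pooled set of 4 embryonic libraries (E17 and E15), 1 library stood apart from the other 3 at 2 members. At Il25, E15 replicate 1 had 7 regions, and the other 3 had 6 each. At Avil, E15 replicate 1 had 10 regions, and the other 3 had 9 each. Both gaps are a single region in a group whose other values are tied, and how often such a gap arises by chance was not tested.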

How the results depend on the processing

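Members with every day 6 library below every embryonic one numbered 2 (19.5% of all genes), and 0 at equal list length (3.57%), 8 with −log10 q of at least 5 (54.9%), 5 in gene spans alone (10.7%), 4 where peaks had to cover 50% of a region (30.9%), 1 with unmerged peaks (18.9%), 1 with log2 counts relative to the library mean (5.49%) and 8 by percent of window covered (62.1%), and 2 to 3 with 1 library left out. The count at an adjusted p of 0.05 was also 2 (22.4% of all genes), and 0 at equal list length, 9 with strict peaks (71.4%), 0 in gene spans, 6 with 50% coverage (48.4%), 1 unmerged (21.9%), 0 on the relative log2 scale, 8 by percent covered (73.4%), 0 with the replicate block and 0 without the shortest and longest lists (an alternative added after seeing the data). It ran from 0 to 3 with 1 library left out, and was 0 for all genes in each of these cases of 0, including 8 of the 10 left-out libraries. The mTEC4-only count was 5 (8.11% of all genes), and 2 at equal list length (4.99%), 0 with strict peaks (0.0731%) and 3 in gene spans (3.48%), and ran from 5 to 9 with 1 library left out. The 9, where 53.5% of genes qualified, came without mTEC4 replicate 1, since 1 library then sufficed. All alternatives of this count were added after seeing the data. Directions turned at equal list length for Ascl2 (1), Gfi1b (0.33) and Il17rb (1.33), in gene spans for Avil (0.67) and Chat (0.25), on the relative log2 scale for Avil (0.10), Chat (0.18) and Il17rb (0.091), and with strict peaks for Rgs13 (-1.25). The cause was not tested. Of 220 member values under alternatives, 162 kept direction and side of the threshold, 28 lost a call and 21 gained one. Deviations of same-numbered libraries correlated at -0.17 to 0.182 between groups, with 1 of 10 pairs of groups over 0.1. Whether same-numbered libraries share anything beyond the number is not known. With the replicate block the lowest member p was 0.01 at Dclk1 (exact permutation, adjusted 0.0543).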
